A study of Macaca fascicularis with 2 samples.

Results

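The transcription factors *TBX21*, *EOMES*, *ZEB2*, *ZNF683*, *BHLHE40* and *PRDM1*, all tied to effector and cytotoxic T cells, were followed in double positive (DP) T cells from blood, which carry both CD4 and CD8 on their surface. These 6 of the 29324 genes measured were picked by symbol, with their levels in these same cells already known, so their values are a description and no test was run on them. Along the granzymes they fell into 2 patterns. *TBX21*, *ZEB2*, *ZNF683*, *BHLHE40* and *PRDM1* were higher in cells with *GZMB* RNA and no *GZMK* RNA than in cells with *GZMK* RNA and no *GZMB* RNA, whereas *EOMES* was 23.9-fold higher in the latter. The differences of *BHLHE40* (1.97-fold) and *PRDM1* (2.05-fold) were small beside those of *TBX21* (6.62-fold) and *ZEB2* (8.09-fold). Across the CD4 and CD8 antibody tags, all 6 factors were higher in both CD8-high gates than in CD4hi CD8lo cells, but among cells with *GZMB* RNA and no *GZMK* RNA the 4 factors with enough UMIs to count differed by less than 2-fold between the CD4lo CD8hi and CD4hi CD8lo gates. *ZNF683* was 5.12-fold higher there in the CD4lo CD8hi gate, on 32 UMIs.

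Cytotoxic T cells kill with granule proteins such as perforin and the granzymes. Granzyme B (*GZMB*) is a death-inducing protease of differentiated effector cells, while granzyme K (*GZMK*) is a trypsin-like protease often found in less differentiated memory cells. The T-box factors T-bet (*TBX21*) and Eomesodermin (*EOMES*) bind related sites and both drive cytotoxic genes. *ZEB2* encodes a zinc-finger homeobox repressor induced downstream of T-bet, *ZNF683* encodes Hobit and *PRDM1* encodes Blimp-1, a pair of related zinc-finger repressors of effector and tissue-resident cells, and *BHLHE40* encodes a basic helix-loop-helix factor that promotes cytokine production in activated T cells.

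The cells came from the fresh blood of 1 untreated cynomolgus monkey aged 10 years. Magnetic beads that can be detached again pulled out CD4+ cells, CD8 beads then pulled out the CD8+ cells among them, and the product was labelled with oligonucleotide-tagged antibodies to CD4 and CD8α. One preparation gave 2 libraries of the same cells, 5′ gene expression and antibody tags. There is no second animal or preparation, so nothing here has a replicate, and every interval is a 95% interval of the counting error alone. Of 8953 barcodes, 8830 met the limits set by the study (200 to 4000 genes, mitochondrial share up to 20%). They held 31677119 gene UMIs (unique molecular identifiers, which count captured RNA molecules) and a median of 3145 per cell (range 502 to 25084).

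Levels are CPM, the UMIs of a gene per 1000000 gene UMIs of a group of cells. They are not divided by gene length, so they are compared between groups and not between genes. In a sum over cells, fewer cells with a transcript and less of it per cell cannot be told apart, so the share of cells with a UMI is given as well, after each cell was thinned to 2200 UMIs, which left out 754 shallower cells. All 6 factors were sparse. *TBX21* (ENSMFAG00000042504) had 486 UMIs in 412 cells, *EOMES* (ENSMFAG00000002012) 489 in 309, *ZEB2* (ENSMFAG00000030381) 1487 in 918, *ZNF683* (ENSMFAG00000002715) 96 in 78, *BHLHE40* (ENSMFAG00000040134) 1615 in 1016 and *PRDM1* (ENSMFAG00000037637) 532 in 447. No cell held more than 8 UMIs of any of them, and from 58.6% (*ZEB2*) to 84.5% (*TBX21*) of the cells with a factor held 1 UMI of it.

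Cells were divided by their UMIs of both granzymes alone. The GZMB-only group (at least 2 *GZMB* UMIs, no *GZMK*) held 1121 cells with 4379 CPM of *GZMB*, the GZMK-only group (at least 2 *GZMK* UMIs, no *GZMB*) held 169 cells with 1981 CPM of *GZMK*, 376 cells had at least 1 UMI of each, 7055 cells had neither and 109 had a single UMI of either. Median depth was similar in the 3 granzyme groups, at 3606, 3236 and 3776 UMIs per cell for GZMB only, GZMK only and both, and 3021 in cells with neither. Background was read in 115 B-like cells with almost no T cell receptor RNA (median 4549 UMIs) and in 3431 naïve-like cells (median 2731 UMIs). The B-like cells were not free of granzyme RNA, with 155 *GZMB* UMIs in 4 of them and 8 *GZMK* UMIs in 3. Every factor was at or under 0.513 CPM in the naïve-like cells, and *TBX21*, *EOMES*, *ZNF683* and *PRDM1* were at or under 5.30 CPM in the B-like cells. *ZEB2* and *BHLHE40* reached 91.8 and 134 CPM in the B-like cells, so only the naïve-like cells were read as background for this pair. Genes of close sequence may share reads with *GZMB*; *GZMH* was not among the gene symbols and was not analysed here.

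*TBX21* marked the GZMB side. Its level was 70.8 CPM in GZMB-only cells (334 UMIs, 63.4 to 78.8), 57.1 in cells with both (46.5 to 69.4), 10.7 in GZMK-only cells (7 UMIs, 4.30 to 22.0) and 1.58 in cells with neither (1.12 to 2.16). The intervals of the first 2 groups overlapped, and each lay above that of GZMK-only cells. GZMB-only cells had 6.62-fold the level of GZMK-only cells (log2 ratio 2.73, 1.67 to 4.05) and 44.9-fold that of cells with neither. A *TBX21* UMI was found in 15.7% of thinned GZMB-only cells (13.6 to 18.1%), 1.90% of GZMK-only cells (0.393 to 5.45%) and 0.885% of the B-like control (0.0224 to 4.83%). Before thinning the first 2 shares were 24.8% and 4.14%. The GZMK-only share overlapped the B-like background but lay above the 0 of 2978 thinned naïve-like cells, which allows up to 0.101%, and the 0.220% of cells with neither (0.120 to 0.368%).

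*EOMES* ran the other way. Its level was 324 CPM in GZMK-only cells (212 UMIs, 282 to 371), 88.8 in cells with both (75.5 to 104), 13.6 in GZMB-only cells (64 UMIs, 10.4 to 17.3) and 1.58 in cells with neither (1.12 to 2.16). None of these 4 intervals overlapped. The log2 ratio of GZMB-only over GZMK-only cells was −4.58 (−5.00 to −4.17), and among 7137 genes that reached 50 UMIs in the 2 groups together only *GZMK*, which defined the groups, had a lower ratio. A UMI of *EOMES* was found in 51.3% of thinned GZMK-only cells (43.2 to 59.3%, or 65.1% unthinned), 15.4% of cells with both and 3.15% of GZMB-only cells (2.19 to 4.37%), against 0.885% of B-like cells (0.0224 to 4.83%). The GZMB-only level of *EOMES*, although low, was 8.61-fold that of cells with neither.

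*ZEB2* followed *TBX21* and not *EOMES*. It was at 223 CPM in GZMB-only cells (1050 UMIs, 209 to 236), 167 in cells with both (148 to 187), 27.5 in GZMK-only cells (18 UMIs, 16.3 to 43.5) and 4.73 in cells with neither (3.90 to 5.68). Each group lay below the one before it with no overlap of intervals. The log2 ratio of GZMB-only over GZMK-only cells was 3.02 (2.35 to 3.78), and the share of thinned cells with a UMI was 37.8% against 6.33%, with 0.0672% in naïve-like cells. Without thinning these shares were 56.3% and 8.88%. Summed monocyte markers moved the same way, at 135 CPM in GZMB-only and 10.7 in GZMK-only cells, where 4 of these 7 genes were at 0. The log2 ratio of *ZEB2* was 3.34 without the B-like, monocyte-like, innate-like and cycling-like clusters.

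*ZNF683* was the scarcest of the factors. GZMB-only cells held 65 of its UMIs (13.8 CPM, 10.6 to 17.6), cells with both 16 (9.05 CPM, 5.17 to 14.7), cells with neither 10 (0.415 CPM, 0.199 to 0.763) and GZMK-only cells 0, which allows up to 4.59 CPM. With the GZMK-only group set to 3 UMIs, its level in GZMB-only cells was 3.01-fold that in GZMK-only cells. The exact interval of the log2 ratio, which has no upper end here, began at 1.25. A UMI was found in 2.41% of thinned GZMB-only cells (1.58 to 3.51%, or 4.82% unthinned) and in 0 of 158 thinned GZMK-only cells, which allows up to 1.90%, so most cells of the GZMB-only group showed none at this depth.

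*BHLHE40* and *PRDM1* separated the granzyme groups less. *BHLHE40* was at 166 CPM in GZMB-only cells (154 to 178), 113 in cells with both (97.5 to 129) and 84.1 in GZMK-only cells (55 UMIs, 63.3 to 109), a log2 ratio of GZMB-only over GZMK-only cells of 0.98 (0.58 to 1.40), just inside 2-fold. *PRDM1* was at 62.5 CPM (55.6 to 70.1), 56.6 (46.0 to 68.8) and 30.6 (20 UMIs, 18.7 to 47.2) in the same order, a log2 ratio of 1.03 (0.38 to 1.76), just past it. Both intervals hold ratios on either side of 2-fold. Without the same 4 clusters the ratios were 1.08 and 1.01. A UMI of *BHLHE40* was found in 29.6% of thinned GZMB-only and 12.0% of GZMK-only cells, and one of *PRDM1* in 13.3% and 6.33% (unthinned 44.7% and 17.8%, then 22.4% and 9.47%), against 0.0336% and 0.101% of naïve-like cells. Cells with neither granzyme had 22.3 CPM of *BHLHE40* (20.5 to 24.3) and 4.60 of *PRDM1* (3.79 to 5.54), and held 33.4% and 20.9% of their UMIs. For the other 4 factors this share was 7.67 to 10.4%.

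**Figure D1:**
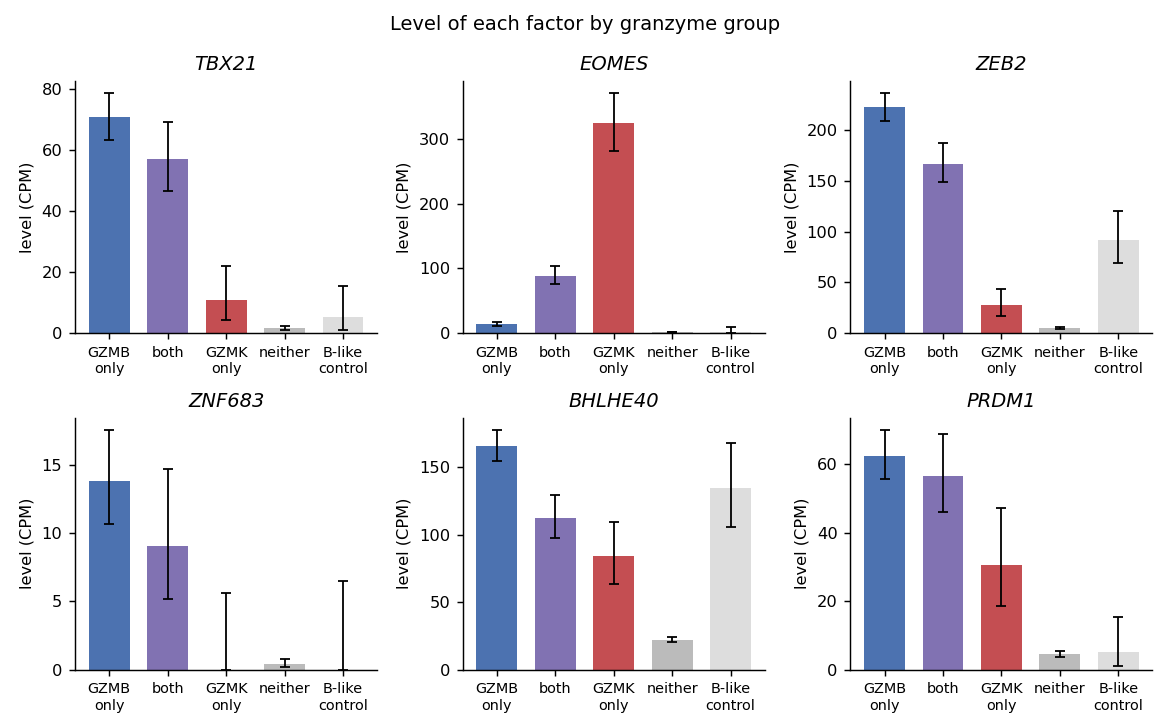
Level of each factor (CPM) in GZMB-only cells, cells with both granzymes, GZMK-only cells, cells with neither and B-like control cells, with 1 panel for each factor. Bars are sums over all cells of a group and error bars are exact Poisson 95% intervals. *EOMES* is highest in GZMK-only cells, at 324 CPM, while the other 5 are higher in GZMB-only than in GZMK-only cells, and *ZEB2* and *BHLHE40* are also seen in B-like cells.

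Among the 7137 genes, 8.46% were at least 2-fold higher in GZMB-only than in GZMK-only cells and 2.62% at least 2-fold lower. Of the 6 factors 4 were higher (*TBX21*, *ZEB2*, *ZNF683* and *PRDM1*), 1 was lower (*EOMES*) and *BHLHE40* lay within 2-fold. Since the factors were chosen with this pattern known, nothing is read from these counts. Against cells with neither granzyme, GZMB-only cells had 10.6% of 10016 genes at least 2-fold higher and 9.73% lower, and all 6 factors were higher, by 7.41-fold (*BHLHE40*) to 47.1-fold (*ZEB2*). In GZMK-only cells against cells with neither, 7.27% of 9725 genes were higher and 7.35% lower. The 4 factors with at least 50 UMIs there were all higher, *EOMES* by 206-fold, *PRDM1* by 6.64-fold, *ZEB2* by 5.82-fold and *BHLHE40* by 3.76-fold. *TBX21* had 6.79-fold the level on 7 UMIs and *ZNF683* had none, and both were under the limit of 50.

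The number of *GZMB* UMIs in a cell added a graded view. *TBX21* went from 1.89 CPM in cells with no *GZMB* to 9.10 with 1 UMI (4 UMIs of *TBX21*, 2.48 to 23.3), 50.02 with 2 to 4, 64.1 with 5 to 9 and 70.4 with 10 or more. *ZEB2* went from 5.34 to 31.9, 147, 203 and 217 CPM over the same bins, and *PRDM1* from 5.30 to 22.8, 33.3, 53.2 and 64.5. For both *TBX21* and *ZEB2* the CPM interval of cells with 1 *GZMB* UMI lay below that of cells with 2 to 4, which is where the limit of the GZMB-only group was set. The thinned shares in these bins overlapped for *TBX21* (1.90%, 0.232 to 6.71%, and 11.4%, 5.34 to 20.5%) but not for *ZEB2* (6.67% and 22.8%). From 2 to 4 UMIs on, the intervals of *TBX21* overlapped with one another.

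*BHLHE40* went from 24.5 to 68.3, 114, 143 and 158 CPM, each step within overlapping intervals after the first. *ZNF683* stood at 0.402 CPM with no *GZMB* and between 5.56 and 13.3 in the other bins, on 2 to 70 UMIs. *EOMES* peaked in the middle. It was at 10.6 CPM in cells without *GZMB*, 86.5 with 1 UMI (61.2 to 119), 69.5 with 2 to 4, 24.5 with 5 to 9 and 27.6 with 10 or more (23.3 to 32.5).

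Along *GZMK* the order of the factors changed. *EOMES* rose with every bin, from 3.67 CPM with no *GZMK* UMI to 43.4 with 1 (28.1 to 64.0), 116 with 2 to 3 (90.3 to 147) and 210.5 with 4 or more (187 to 236), with no overlap of neighbouring CPM intervals. Its thinned shares at 1 and at 2 to 3 *GZMK* UMIs did overlap (7.81%, 3.81 to 13.9%, and 20.2%, 13.6 to 28.1%). *TBX21* was at 12.9, 57.2, 67.3 and 27.0 CPM in the same bins, so it was higher in cells with a few *GZMK* UMIs than in cells with many (48.0 to 91.6 against 19.0 to 37.3). *ZEB2* behaved likewise, with 166 CPM at 1 *GZMK* UMI and 95.7 at 4 or more. *BHLHE40* was at 142 and 87.7 CPM, *PRDM1* at 55.5 and 40.2, and *ZNF683* at 13.9 and 2.19 on 8 and 3 UMIs in those bins.

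**Figure D2:**
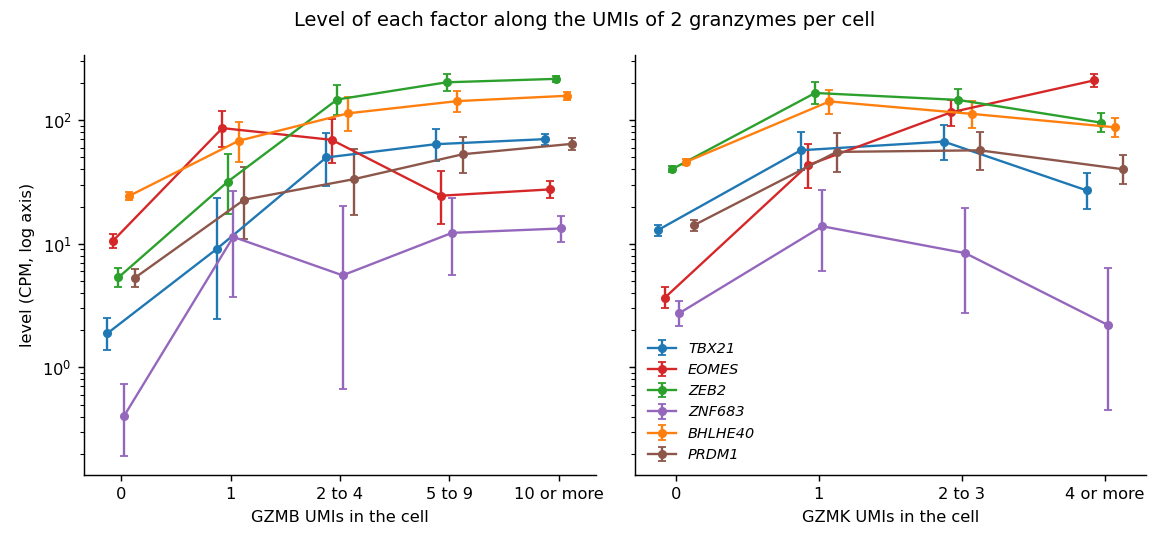
Level of each factor (CPM, log axis) in cells binned by their *GZMB* UMIs (left) and by their *GZMK* UMIs (right). Points are sums over the cells of a bin, shifted sideways for legibility, and error bars are exact Poisson 95% intervals. On the left *EOMES* is highest at 1 *GZMB* UMI and lower from 5 on, and on the right it is the factor that rises in every bin, to 210.5 CPM.

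The 376 cells with both granzymes were divided by the balance of their UMIs, with limits chosen after the values were seen. *TBX21* was at 91.3 CPM where *GZMB* exceeded *GZMK* by over 9 times (125 cells, 68.8 to 119), 47.6 where it was above up to 9 times (173 cells, 34.0 to 64.9) and 18.4 where it was at most equal (78 cells, 6 UMIs, 6.77 to 40.2). *ZEB2* was at 226, 169 and 52.3 CPM, and *ZNF683* at 18.3, 5.95 and 0 on 11, 5 and 0 UMIs. *EOMES* went from 46.5 CPM (30.9 to 67.2) through 85.7 to 175 (133 to 227). The outer CPM intervals of *TBX21*, *ZEB2* and *EOMES* did not overlap. In CPM, the opposite course of the T-box pair was therefore also seen within the cells that held both granzymes. The thinned shares of cells with a *TBX21* UMI overlapped between the outer classes (16.8%, 10.7 to 24.5%, and 5.63%, 1.56 to 13.8%, on 4 cells). Before thinning these shares were apart (27.6 to 45.1% and 2.88 to 15.99%). Thinned shares were apart for *EOMES* (3.90 to 14.2% and 20.5 to 43.1%) and *ZEB2* (32.9 to 50.8% and 5.96 to 22.7%). *BHLHE40* was at 139, 111 and 67.6 CPM and *PRDM1* at 69.7, 59.5 and 24.6.

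Summed NK marker RNA was 583 CPM in the cells with both granzymes, against 177 in GZMB-only and 27.5 in GZMK-only cells, where 4 of the 6 NK genes, *NCAM1* and *NCR1* among them, were at 0. *NCAM1* was also at 0 in the cells with both, and 34 of these 376 cells lay in the innate-like cluster. The part of these cells in the values of the middle group was not tested. Without the B-like, monocyte-like, innate-like and cycling-like clusters, the log2 ratio of *EOMES* in GZMB-only over GZMK-only cells was −4.72.

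**Figure D3:**
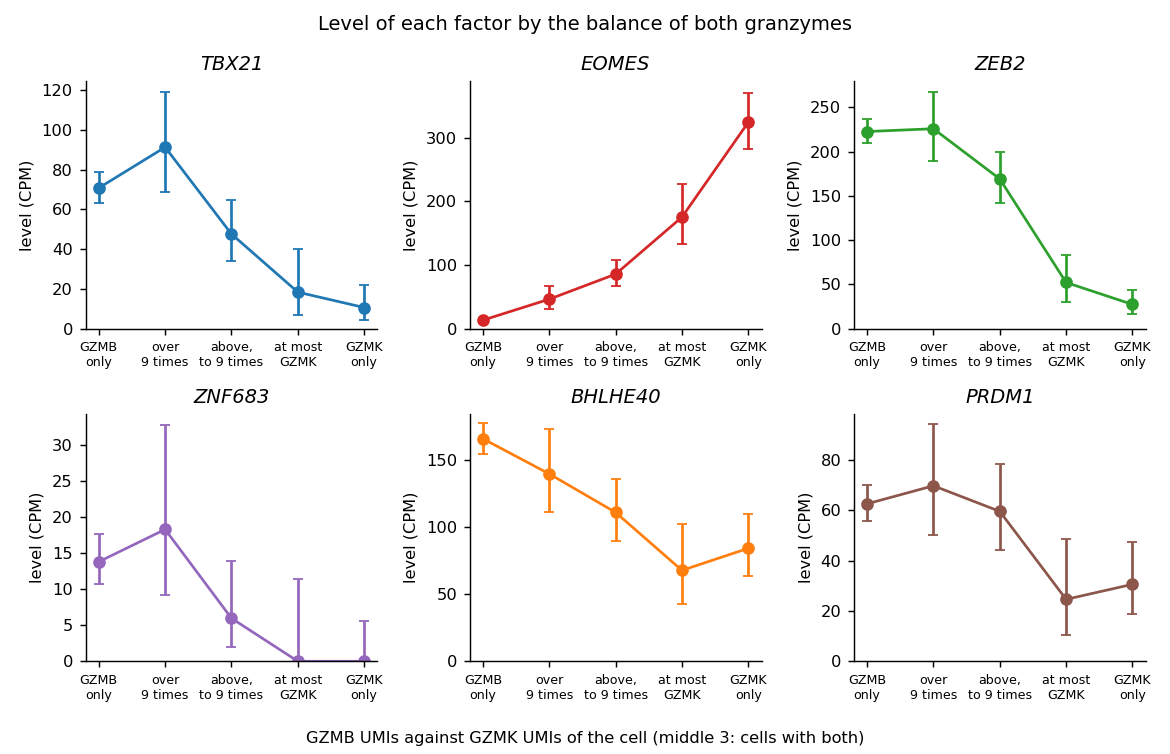
Level of each factor (CPM) by the balance of *GZMB* and *GZMK* UMIs, from GZMB-only cells on the left through 3 classes of cells with both granzymes (*GZMB* over 9 times *GZMK*, above up to 9 times, at most equal) to GZMK-only cells on the right. Points are sums over cells and error bars are exact Poisson 95% intervals. *EOMES* climbs from 13.6 to 324 CPM, and *ZEB2* drops from 223 to 27.5.

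The T-box pair was also looked for in the same cells. Among thinned cells with both granzymes, 4.65% of the 43 with a *TBX21* UMI also had one of *EOMES* (2 cells, 0.568 to 15.8%), against 16.8% of the 321 without *TBX21* (12.9 to 21.4%), so the intervals overlapped. Without thinning the shares were 17.4% and 29.7%. In GZMB-only cells, *EOMES* was found in 3.53% of cells with *TBX21* and 3.08% of those without, with no difference beyond counting error. Among 81 thinned GZMK-only cells with *EOMES*, 1 held *TBX21*.

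After thinning, the intervals of the share with and without the other factor overlapped for every pair of the 6 factors in the 3 granzyme groups. Before thinning they did not for some pairs in cells with both granzymes, where *ZEB2* was found in 66.3% of cells with *TBX21* (55.3 to 76.1%) and 41.7% of those without (36.0 to 47.6%). In thinned GZMB-only cells *ZEB2* was found in 41.2% of cells with *TBX21* (33.7 to 49.0%) and 37.1% of those without (34.0 to 40.4%), and *PRDM1* in 9.41% and 14.1%. At least 1 of the 6 factors was seen in 68.1% of thinned GZMB-only cells, 61.0% of cells with both, 60.1% of GZMK-only cells and 4.54% of cells with neither.

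Across the tags, a CD4 limit of 144 and a CD8 limit of 419 UMIs set 4 gates, with 5758 CD4hi CD8lo, 2543 CD4hi CD8hi, 418 CD4lo CD8hi and 111 CD4lo CD8lo cells. All 6 factors were lowest in the CD4hi CD8lo gate among the first 3. *TBX21* was at 7.53 CPM there (6.33 to 8.90), 24.1 in CD4hi CD8hi (21.3 to 27.1) and 45.4 in CD4lo CD8hi cells (35.6 to 56.9). *EOMES* was at 8.18, 24.5 and 36.8 CPM, *ZEB2* at 23.3, 68.7 and 152, and *PRDM1* at 9.17, 25.7 and 43.5. For these 4 factors the CPM intervals of the 3 gates did not overlap, and the closest were those of *EOMES* in CD4hi CD8hi (21.7 to 27.6) and CD4lo CD8hi cells (28.1 to 47.3). The thinned shares of cells with a UMI overlapped between both CD8-high gates for *TBX21* (5.11%, 4.26 to 6.07%, and 7.73%, 5.31 to 10.8%). They also overlapped for *PRDM1* (5.77%, 4.88 to 6.78%, and 7.48%, 5.10 to 10.5%). The shares were apart for *EOMES* (3.99% and 8.23%) and *ZEB2* (12.0% and 28.2%).

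*BHLHE40* had 23.8 CPM in CD4hi CD8lo and close levels in both CD8-high gates, 87.5 (82.1 to 93.2) and 90.7 (76.7 to 107). *ZNF683* spanned the widest range, from 0.6002 CPM (11 UMIs, 0.300 to 1.07) over 4.26 (48 UMIs, 3.14 to 5.65) to 22.7 (37 UMIs, 16.0 to 31.3), a log2 ratio of CD4lo CD8hi over CD4hi CD8lo cells of 5.24 (4.24 to 6.36). The CD4lo CD8hi gate held 38.5% of its UMIs and 5.15% of all gene UMIs. The median CD8 tag of the 78 cells with *ZNF683* was 1812.5 UMIs, against 296 in the other cells.

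CD4lo CD8lo cells had 84.1 CPM of *ZEB2* and 99.6 of *BHLHE40*, but 6.64 or less of the other 4 factors. B cell markers summed to 4471 CPM and red cell markers to 9975 CPM in this gate, and their part in these levels was not tested. In the other gates the B markers summed to at most 199.8 CPM, and NK markers to 37.9 CPM in CD4hi CD8lo, 94.8 in CD4hi CD8hi and 546 in CD4lo CD8hi cells, with *NCAM1* at 0 in the last.

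From the CD4hi CD8lo to the CD4lo CD8hi gate, 5.21% of 9416 genes were at least 2-fold higher and 6.56% lower. All 5 factors with at least 50 UMIs over both gates were higher, by 3.81-fold (*BHLHE40*) to 6.52-fold (*ZEB2*), and *ZNF683*, with 48 UMIs, was 37.8-fold higher. From CD4hi CD8lo to CD4hi CD8hi cells, 4.51% of 10028 genes were higher and 1.19% lower, and all 6 factors were higher, by 2.81-fold (*PRDM1*) to 7.10-fold (*ZNF683*). The sizes depended on the limits of the tags. With both limits divided by 1.5, the log2 ratio of *TBX21* from CD4hi CD8lo to CD4lo CD8hi cells was 3.99 instead of 2.59, and that of *PRDM1* 3.03 instead of 2.25. From CD4hi CD8lo to CD4hi CD8hi cells the same pair went from 1.68 to 2.69 and from 1.49 to 2.47. All 6 factors stayed past 2-fold in both comparisons under the 8 alternatives tried. The make-up of the gates also differed: GZMB-only cells were 5.44% of the CD4hi CD8lo, 25.8% of the CD4hi CD8hi and 34.4% of the CD4lo CD8hi gate. Cells with both granzymes were 1.72%, 6.45% and 26.1% in this order, and GZMK-only cells 1.29%, 3.62% and 0.718%. Of the 60 *EOMES* UMIs in the CD4lo CD8hi gate, 36 lay in cells with both.

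The factors were therefore compared between gates within the GZMB-only group alone, in 313 CD4hi CD8lo, 655 CD4hi CD8hi and 144 CD4lo CD8hi cells. The differences of most factors were small there. *TBX21* was at 84.2 CPM (68.4 to 103), 65.2 (56.4 to 74.99) and 73.2 (51.5 to 101) in this order of gates, *BHLHE40* at 172, 162 and 166, and *PRDM1* at 73.2, 57.9 and 65.3. The log2 ratio of CD4lo CD8hi over CD4hi CD8lo cells was −0.20 for *TBX21* (−0.79 to 0.36), 0.01 for *ZEB2* (−0.29 to 0.31), −0.05 for *BHLHE40* (−0.43 to 0.33) and −0.16 for *PRDM1* (−0.79 to 0.43). These intervals all hold 0 and leave out a 2-fold difference in either direction. The ratio of *TBX21* moved with the limits, to 0.67 with both tag limits divided by 1.5, and lay between −0.32 and 0.67 over 10 alternatives.

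*ZNF683* differed within the GZMB-only group as well, by less than in all cells. GZMB-only cells had 8.51 CPM of it in CD4hi CD8lo (10 UMIs, 4.08 to 15.6), 10.9 in CD4hi CD8hi (33 UMIs, 7.52 to 15.3) and 43.5 in CD4lo CD8hi cells (22 UMIs, 27.3 to 65.9). The last was 5.12-fold the first (log2 ratio 2.36, 1.22 to 3.60), against 37.8-fold over all cells, and the interval of the CD4lo CD8hi gate lay above both others. CD4hi CD8hi over CD4hi CD8lo cells gave 1.28-fold here and 7.10-fold over all cells. The thinned shares were 1.32%, 2.19% and 5.797% of cells (0.361 to 3.35%, 1.205 to 3.65% and 2.54 to 11.1%), whose intervals overlapped. In the cells with both granzymes the same order was seen on 0, 5 and 11 UMIs, at 0, 5.42 and 24.3 CPM.

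*EOMES* in GZMB-only cells was at 14.5, 11.3 and 25.7 CPM on 17, 34 and 13 UMIs, a log2 ratio of CD4lo CD8hi over CD4hi CD8lo cells of 0.83. Its interval, −0.33 to 1.96, holds both no difference and one past 2-fold. *ZEB2* was at 267 CPM in CD4hi CD8lo (238 to 298) and 269 in CD4lo CD8hi cells (226 to 318) but at 198 in CD4hi CD8hi cells (182 to 214), a log2 ratio of CD4hi CD8hi over CD4hi CD8lo of −0.43 (−0.63 to −0.23). *TBX21* also had a ratio below 0 in this comparison, −0.37 (−0.72 to −0.01). Both were under 2-fold.

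As background within GZMB-only cells, 1.13% of 3878 genes were at least 2-fold higher and 1.88% lower in CD4lo CD8hi than in CD4hi CD8lo cells. None of the 4 factors tested there passed 2-fold, and *ZNF683* (32 UMIs) and *EOMES* (30 UMIs) were under the limit of 50. For CD4hi CD8hi over CD4hi CD8lo cells the shares were 1.43% higher and 0.185% lower of 6502 genes, and none of the 5 factors tested passed 2-fold. Among cells with neither granzyme the CPM of some factors differed between these gates. Median depth there was 2905 UMIs in CD4hi CD8lo and 3720.5 in CD4hi CD8hi cells. *BHLHE40* was at 9.63 CPM in CD4hi CD8lo (8.18 to 11.3) and 49.6 in CD4hi CD8hi cells (44.4 to 55.2). *PRDM1* was at 2.88 and 9.03 CPM, *TBX21* at 0.859 and 2.96 and *EOMES* at 0.736 and 2.67. The intervals of these 4 factors did not overlap between the gates. Those of *ZEB2* did, at 2.82 and 4.29 CPM, and *ZNF683* had 0 and 9 UMIs.

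**Figure D4:**
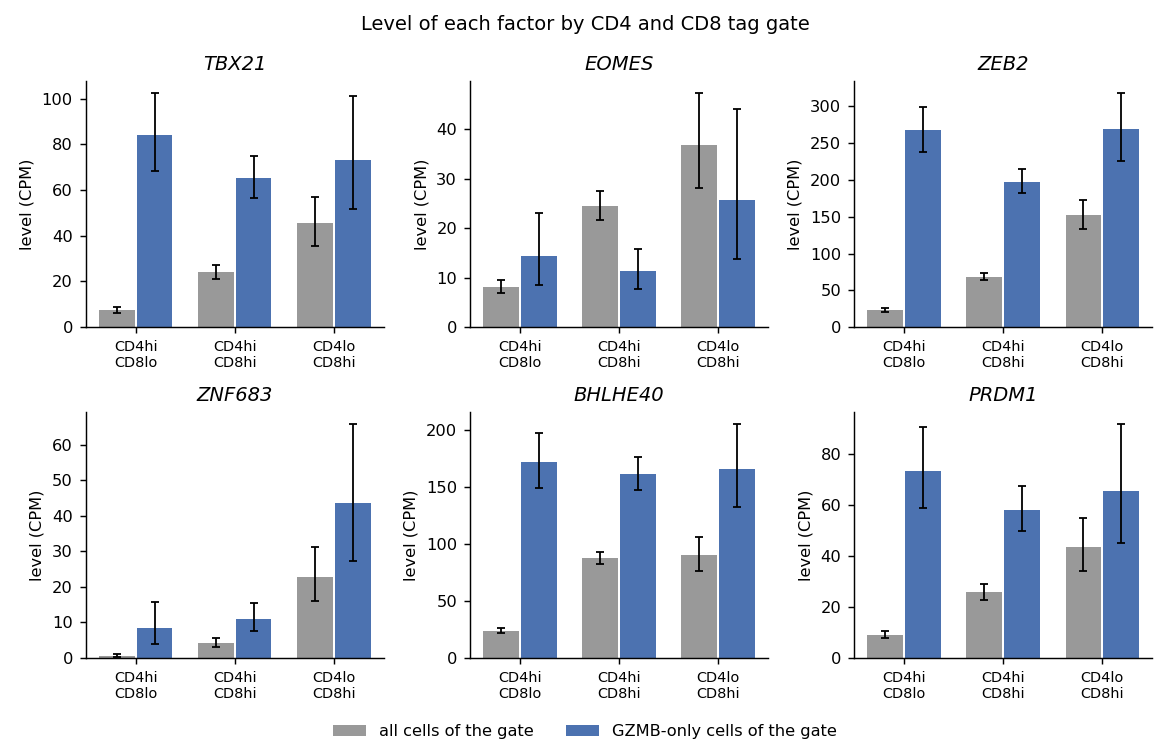
Level of each factor (CPM) in the CD4hi CD8lo, CD4hi CD8hi and CD4lo CD8hi gates, for all cells of a gate (grey) and for its GZMB-only cells (blue). Bars are sums over cells and error bars are exact Poisson 95% intervals. The grey bars climb towards the CD8-high gates for all 6 factors, whereas among the blue bars *ZNF683* stands apart in CD4lo CD8hi cells, at 43.5 CPM.

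The CD8 tag was also followed finely in the 968 GZMB-only cells of high CD4 tag, cut into quintiles of the CD8 tag after the values were seen. The median CD8 tag of the quintiles was 267, 406, 536, 722 and 1690 UMIs. *ZEB2* was at 271 CPM in the lowest quintile (235 to 312) and 172 in the highest (149 to 198). *TBX21* lay between 69.3 and 94.5 CPM in the first 4 quintiles and at 48.5 in the highest (36.6 to 63.0), and *PRDM1* between 68.2 and 72.9 and then at 39.0 (28.4 to 52.1).

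The highest quintile therefore had the lowest level of all 3. Its cells had a median of 5663 gene UMIs, against 3482 to 3725 in the others, and the part of this depth in the CPM was not tested. After thinning, a *TBX21* UMI was found in 12.6% of cells of the highest quintile and 17.1% of the lowest, with overlapping intervals (8.26 to 18.2% and 12.0 to 23.3%). *ZNF683* stayed between 4.78 and 14.7 CPM with no order over the quintiles, and *BHLHE40* and *EOMES* showed none either, at 143 to 189.8 and 5.97 to 16.1 CPM.

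Clustering of the 8830 cells, with the 6 factors and both granzymes left out of the genes that shaped it, gave 17 clusters. Names such as CD4 CTL-like (CTL, cytotoxic T lymphocyte), Th2-like, Th17-like (helper T cells) and Treg-like (regulatory T cells) rest on listed markers. *GZMB* was among the markers of both CTL-like names, so these names and the GZMB-only shares of their clusters are not independent. Levels by cluster are a description, since genes that vary with the factors did shape the clusters. The CD4 CTL-like cluster (864 cells, 85.1% of them GZMB only) had the highest *TBX21* at 85.0 CPM (75.3 to 95.7), and also 249 of *ZEB2* (232 to 266) and 75.5 of *PRDM1* (66.3 to 85.5). In the CD8 CTL-like cluster (422 cells, 69.7% GZMB only), *TBX21* was at 59.6 CPM (49.6 to 71.1), *ZEB2* at 193 (175 to 213), *BHLHE40* at 113 against 188 in the CD4 CTL-like cluster, and *PRDM1* at 52.4 (43.1 to 63.2). All 4 levels were lower there, with intervals that did not overlap. The thinned shares of cells with a UMI were apart for *BHLHE40* (32.3% in the CD4 and 21.7% in the CD8 CTL-like cluster), overlapped for *TBX21* (17.6% and 13.3%) and *PRDM1* (15.7% and 10.4%), and were close for *ZEB2*, at 39.4% and 38.9%, or 55.1% and 59.0% before thinning. *ZNF683* was higher, at 26.0 CPM (54 UMIs, 19.5 to 33.9) against 9.55 (31 UMIs, 6.49 to 13.6).

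*EOMES* was highest in a cluster of 258 cells, 56.2% of them GZMK only, led by *GZMK* and *EOMES* among its genes. This cluster carried 5 of 6 CD8 CTL markers but stayed unnamed, because its first gene, *GZMK*, belongs to another marker list. That list held only *GZMK* and *CHI3L2*, and a name needed at least 3 markers, so it could not name any cluster. The missing name follows from the naming rule, so neither it nor the CD8 CTL markers settle what these cells are. The paper defined its own cluster with *EOMES*, *GZMK* and *CHI3L2* as a kind of Eomes+ regulatory T-like cell. A match to that cluster was not tested. The cluster of 258 cells had 264 CPM of *EOMES* (233 to 298) with 10.97 of *TBX21*, 28.9 of *ZEB2* and 25.9 of *PRDM1*. It held 145 of the 169 GZMK-only cells. The 53 innate-like cells carried the T-box pair together as a group, with 141 CPM of *EOMES* (99.0 to 196), 58.9 of *TBX21* (33.0 to 97.2) and 208 of *ZEB2* (156 to 272). The 48 cycling-like cells had 73.0 CPM of *EOMES*, 32.7 of *TBX21* and 108 of *ZEB2*.

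*BHLHE40* was not confined to cytotoxic clusters. It reached 148 CPM in 346 Th17-like cells (131 to 167) and 113 in 214 Th2-like cells (93.2 to 136), where *ZEB2* was at 6.38 and 2.02 and *TBX21* at 12.2 and 4.04 CPM. Of its UMIs in cells with neither granzyme, 43.0% lay in the Th17-like, 19.3% in the Th2-like and 17.6% in the B-like cluster. These clusters held 7.03%, 3.92% and 3.25% of all gene UMIs of those cells. In the 19 monocyte-like cells *BHLHE40* was at 229.5 CPM on 29 UMIs, beside 150.4 of *ZEB2* on 19. *ZEB2* UMIs of cells with neither granzyme lay mainly in the B-like (50.9%) and monocyte-like (15.8%) clusters, which held 3.25% and 0.331% of all gene UMIs there.

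*PRDM1* had a lower but like spread, with 21.8 CPM in Th17-like, 18.2 in Th2-like and 12.9 in an unnamed cluster of 659 cells, where 23.6 CPM of *BHLHE40* was also found. The latter carried all 4 Treg markers and was led by *FOXP3*, but *CR2*, *CR1*, *CXCR5* and *IGKC*, genes of B and follicular cells, were also among its 10 leading genes. The 3 clusters held 29.7%, 16.2% and 34.2% of the *PRDM1* UMIs in cells with neither granzyme. Their parts of all gene UMIs of those cells were 7.03%, 3.92% and 12.4%. The Treg-like cluster of 415 cells had 3.42 CPM of *PRDM1* and no UMI of *BHLHE40*, *TBX21* or *ZNF683*. In the naïve-like clusters and in an unnamed cluster of 1795 cells that carried all 6 naïve markers, no factor exceeded 1.51 CPM, and this includes 159 naïve-like cells with a median CD8 tag of 1422 UMIs. In the smallest of these clusters (65 cells) every factor had 0 UMIs, which allows up to 16.4 CPM. A count of 0 in the 159 cells allows up to 4.54 CPM.

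**Figure D5:**
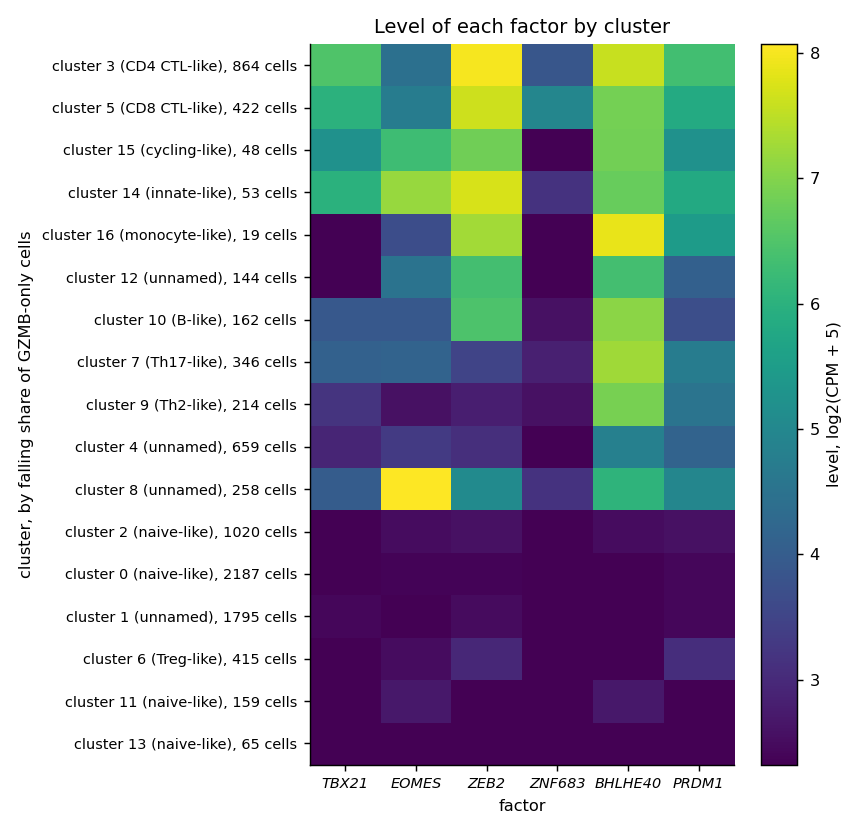
Heat map of the level of each factor, as log2(CPM + 5), in the 17 clusters, ordered from the highest share of GZMB-only cells at the top to the lowest at the bottom. Yellow marks high and dark blue low levels on 1 scale for all cells of the map, so colours are compared down a column. *EOMES* peaks in cluster 8, at 264 CPM, and *BHLHE40* is also seen in the Th17-like, Th2-like, B-like and monocyte-like clusters.

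Over the 17 clusters, the genes most like each factor were ranked by Pearson's r of log2(CPM + 5) among 7133 genes with at least 200 UMIs. The clusters share 1 library, differ in size and depth, and were shaped by many of these genes, so r is only a measure of likeness. *EOMES* was closest to *GZMK* (r = 0.951), then *CST7* (0.869) and *NKG7* (0.848). *ZEB2* was closest to *GZMB* (0.985), then the chemokine gene *CCL5* (0.963) and *RGS9* (0.946). *TBX21* was closest to *RNF11* (0.940), *TMEM50A* (0.929) and *LLGL2* (0.926), and *ZNF683* to *TBX21* itself (0.783), *RPS6KA1* (0.760) and *TMEM50A* (0.745).

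*BHLHE40* was closest to *SLC6A6* (0.960), *LCP1* (0.956) and *AHNAK* (0.954), and *PRDM1* to *RAP1GAP2* (0.965), *HOPX* (0.956) and *SLC6A6* (0.955). Between the factors, r was highest for *BHLHE40* with *PRDM1* (0.897) and lowest for *EOMES* with *ZNF683* (0.421).

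Other genes of the same programmes were counted in lists chosen with earlier results known. Between GZMB-only and GZMK-only cells, of 6 tested of 10 factors of resting T cells 0 were at least 2-fold higher and 2 lower in GZMB-only cells, *TCF7* (77.2 against 315 CPM, log2 ratio −2.03), which keeps T cells memory-like, and *ZEB1* (−1.05), a relative of *ZEB2*. The median of these 6 log2 ratios was −0.66, beside 0.11 over all genes, of which 8.46% were higher and 2.62% lower. Of 9 tested of 13 other effector factors 4 were higher, *HOPX* (394 against 29.0 CPM, 3.76), *RUNX3* (1.11), *ID2* (1.07) and *IRF8* (64 UMIs against 1), and 1 was lower, *TOX* (−1.02), a factor of chronically stimulated T cells. Their median was 0.76. The 2 tested of 5 lineage factors, *ZBTB7B* and *GATA3*, lay within 2-fold.

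Of 13 tested of 18 effector products and receptors 9 were higher in GZMB-only cells, with a median log2 ratio of 1.43 and against 8.46% of all genes, among them *CCL5* (3.89), the granule gene *NKG7* (1.43) and the perforin gene *PRF1* (1.27). The fractalkine receptor gene *CX3CR1* had 1134 UMIs against 1, and the killer receptor gene *KLRD1* 525 against 0. The chemokine receptor gene *CXCR3* was lower (−1.16).

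Against cells with neither granzyme, GZMB-only cells had 0 of 7 tested resting factors higher and 7 lower, 7 of 12 effector factors higher and 1 lower, 0 of 5 lineage factors higher and 3 lower, and 13 of 13 products higher. The medians of these lists were −2.38, 1.22, −1.92 and 6.07, beside 0.14 over all genes, of which 10.6% were higher and 9.73% lower. Within GZMB-only cells, CD4lo CD8hi over CD4hi CD8lo, 5 of 13 products were higher, *KLRD1* (2.66), *GNLY* (2.08), *GZMA* (1.38), *CCL5* (1.28) and *PRF1* (1.22), and *CXCR3* was lower (−2.34), with a list median of 0.74 beside −0.02 over all genes, of which 1.13% were higher and 1.88% lower. Of the 9 other effector factors tested there 0 were higher and 1 was lower, *IRF8* (3 UMIs against 55, log2 ratio −2.98, −5.30 to −1.36).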

How the data were processed

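The authors aligned the reads of both libraries to Macaca_fascicularis_5.0 and deposited raw UMI counts of genes and tags in each barcode. The submitters' processing notes name Cell Ranger 3.1.0, STAR 2.5.1b and Seurat 3.1.3. The stated limits on cells kept more cells here than the study analysed. The UMIs of each group of cells were added up and scaled to CPM, with exact Poisson intervals. Ratios have exact binomial intervals of the split of UMIs, shares have Clopper-Pearson intervals, and a count of 0 was read as allowing 3 UMIs. A gene was counted as higher or lower at 2-fold with at least 50 UMIs over both groups. With 1 animal no test was run. Clusters came from Seurat 5.3.0 in R 4.3.3 (2000 variable genes, 20 principal components, 20 neighbours, resolution 0.8), and the rule for their names was amended after they had been seen. A name needed at least 3 listed markers at 1.5-fold the median cluster, no more genes of another class among the 10 leading genes, and a first gene of no other list. The median depth of the cluster also had to be at least that of all cells divided by 3. Scrublet in scanpy 1.11.5 called 0 cells, so no doublets were removed. Python 3.11.15, numpy 2.4.6, scipy 1.17.1, scikit-learn 1.9.0 and matplotlib 3.10.9 did the remaining work. Simulated data with known answers were used to test the ratio intervals and the thinning, but not the other steps. The 6 factors and all lists were chosen with earlier results of these data known. The genes named are the 6 factors, both granzymes, examples of the lists and, for each factor, the 3 genes most like it over the clusters. No genome of the build of the files was used here, so no positions or sequences are given.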

Additional observations from a re-analysis of the deposited data

How the results depend on the processing

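No paired analysis was possible because there was 1 preparation of 1 animal and no result came from a test. Other limits of granzyme UMIs, filters, tag limits, removal of high doublet scores, a mean over cells and other clusterings were tried, and leaving out the B-like, monocyte-like, innate-like and cycling-like clusters was added after the data had been seen. With both tag limits divided by 1.5, within GZMB-only cells the log2 ratio of *TBX21* in CD4hi CD8hi over CD4hi CD8lo cells went from −0.37 to 0.022, and 1 of the 6 factors became at least 2-fold higher (*ZNF683*, 1.56) where 0 had been. The log2 ratio of *ZNF683* in CD4lo CD8hi over CD4hi CD8lo GZMB-only cells lay between 2.10 and 2.75 over 10 alternatives. The ratio of *BHLHE40* in GZMB-only over GZMK-only cells lay between 0.83 and 1.38 and passed 2-fold in 3 of 7 alternatives, and that of *PRDM1* lay between 0.94 and 1.14. With at least 20 UMIs over both groups, 415 genes were at least 2-fold lower in GZMB-only than GZMK-only cells instead of 187. With at least 200 UMIs, which leaves fewer genes, 195 were higher and 43 lower instead of 604 and 187. At resolution 0.4 both CTL-like clusters lay in 1 cluster of 1285 cells. Depth limits *ZNF683*, with 96 UMIs in all, and the GZMK-only group, with 169 cells.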
